A study of Macaca mulatta with 2 samples.

Results

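The amino acid transporter families are solute carriers (SLC) that move amino acids and related small molecules across membranes. Members were all gene probes of the array whose gene name begins with SLC1A, SLC3A, SLC6A, SLC7A, SLC36A, SLC38A or SLC43A and a number. This gave 57 of the 21509 gene names, read by 93 probes of 60 bases with 1 spot each. SLC6A held 20 of them, SLC7A 14, SLC1A and SLC38A 7 each, SLC36A 4, SLC43A 3 and SLC3A 2. The rule also took SLC7A6OS, a gene named only for lying opposite SLC7A6, and the pseudogene SLC6A10P. Of the 57 names, 56 also stand in macaque gene tables, and the exception was SLC6A10P.

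RNA came from 2 primary Sertoli cell cultures of rhesus macaque, 1 infant and 1 pubertal, each read on 1 one-colour array of human probes. The infant culture was made from testes of males younger than 3 months. The pubertal culture was made from juvenile males of 18 to 22 months in which gonadotropin-releasing hormone had induced puberty. It was given through a catheter in pulses of 2 min at 0.15 µg/min, 3 h apart, over 4 to 5 weeks. Both cultures had been exposed for 12 h to 5 ng/ml follicle-stimulating hormone and 100 nM testosterone, so no culture without hormone enters the comparison. The number of animals behind each culture was not known here. With 1 array per group there is no replicate and no test, and age, animal, culture and hormone-induced puberty cannot be told apart.

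Sertoli cells feed germ cells that lie behind the barrier of the seminiferous tubule, and amino acids must cross their membranes to reach them. SLC1A members carry glutamate or small neutral amino acids with sodium, and SLC6A members carry neurotransmitters, taurine, creatine and neutral amino acids with sodium and chloride. SLC7A members are cationic carriers or exchangers whose light chains need a heavy chain, SLC3A1 or SLC3A2, to reach the surface. SLC36A includes carriers coupled to protons. SLC38A carriers are coupled to sodium, many of them moving glutamine, and SLC43A holds facilitators of large neutral amino acids.

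Signals below are on the log2 scale with the 75th percentile of the array set to 0, and differences are pubertal minus infant. The array error given with a difference is the scanner software's estimate, which covers the spot and not the culture. A gene was measured where a probe stood well above background on both arrays, which held for 28 of the 57 members. Human probes can mismatch macaque RNA, so a dim probe does not show that a gene is silent, and levels of different genes were not compared. All 14 Sertoli cell markers, among them SOX9, WT1, GATA4, FSHR and CLU, were measured on both arrays. Most but not all were higher in the pubertal culture: 11 of the 14 were positive and 3 negative, with a median of 0.425. Of these markers 4 were at least 2-fold higher and 1 lower, where 7.32% and 6.32% of all measured genes were. AMH differed by 3.28 and DMRT1 by 2.11, but the inhibin subunits INHBB by -1.31 and INHA by -0.52.

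The human sequences below are probes of genes named in the main results, and are shown since what a probe binds in macaque RNA sets its value. Each is written 5′ to 3′ as deposited, all in lower case because no base is singled out, and has 1 reading frame or more without a stop codon. They read the testis orphan carrier SLC6A16, the leucine exchanger SLC7A5 (the dimmer of 2 probes) and its heavy chain SLC3A2. The SLC3A2 probe is the brighter of 2 and lay in an area of the slide where neighbouring spots also differed between the arrays. The others read the taurine carrier SLC6A6, the creatine carrier SLC6A8 (the dimmer of 2 probes), its pseudogene SLC6A10P, the glycine carrier SLC6A9 and SLC38A6. The SLC6A6 probe is 1 of 4, with the largest difference but not the brightest signal.
SLC6A16: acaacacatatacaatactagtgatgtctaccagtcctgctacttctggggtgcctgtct
SLC7A5: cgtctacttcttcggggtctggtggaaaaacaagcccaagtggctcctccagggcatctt
SLC3A2: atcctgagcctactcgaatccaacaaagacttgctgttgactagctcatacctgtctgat
SLC6A6: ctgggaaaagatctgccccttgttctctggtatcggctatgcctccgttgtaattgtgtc
SLC6A8: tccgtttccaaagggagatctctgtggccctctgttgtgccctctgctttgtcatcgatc
SLC6A10P: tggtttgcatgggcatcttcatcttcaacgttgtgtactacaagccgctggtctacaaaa
SLC6A9: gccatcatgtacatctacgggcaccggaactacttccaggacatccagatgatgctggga
SLC38A6: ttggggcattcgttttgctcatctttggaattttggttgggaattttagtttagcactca

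Most measured transporters had lower signals in the pubertal culture, by amounts mostly under 2-fold, and 3 were at least 2-fold higher there, of which SLC6A16 alone held with normexp correction. Of the 28 measured members 21 had a negative difference, against 54.2% of the 14243 genes measured. The median was -0.44, against -0.06 over all these genes. SLC6A16, SLC1A7 and SLC43A1 were at least 2-fold higher in the pubertal culture, 3 of 28, where 7.32% of all genes were. SLC7A5, SLC6A10P, SLC38A6 and SLC6A6 were at least 2-fold lower, 4 of 28, where 6.32% were. Without the pseudogene SLC6A10P and SLC7A6OS, 3 of 26 were at least 2-fold higher, 3 were lower, and 20 had a negative difference. Measured against the array error, 15 members were lower by over 2 errors and 4 higher, beside 27.0% and 22.0% of all genes. These directions are relative to the 75th percentile: scaled on spike-in RNA, the median of all genes was 0.94, the members' median was 0.56, and 7 members were 2-fold higher and 0 lower, where 45.6% and 0.864% of all genes were. By signal percentile over detected probes 3 were higher and 2 lower, beside 1178 and 773 of the 14243 genes. Loess normalization gave 3 and 2, beside 1133 and 766. With normexp correction 1 was higher and 2 lower, beside 553 and 568. Among brighter genes only, a filter that all 3 higher members miss, 0 of 12 were higher, beside 309 of 7121 genes.

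**Figure D1:**
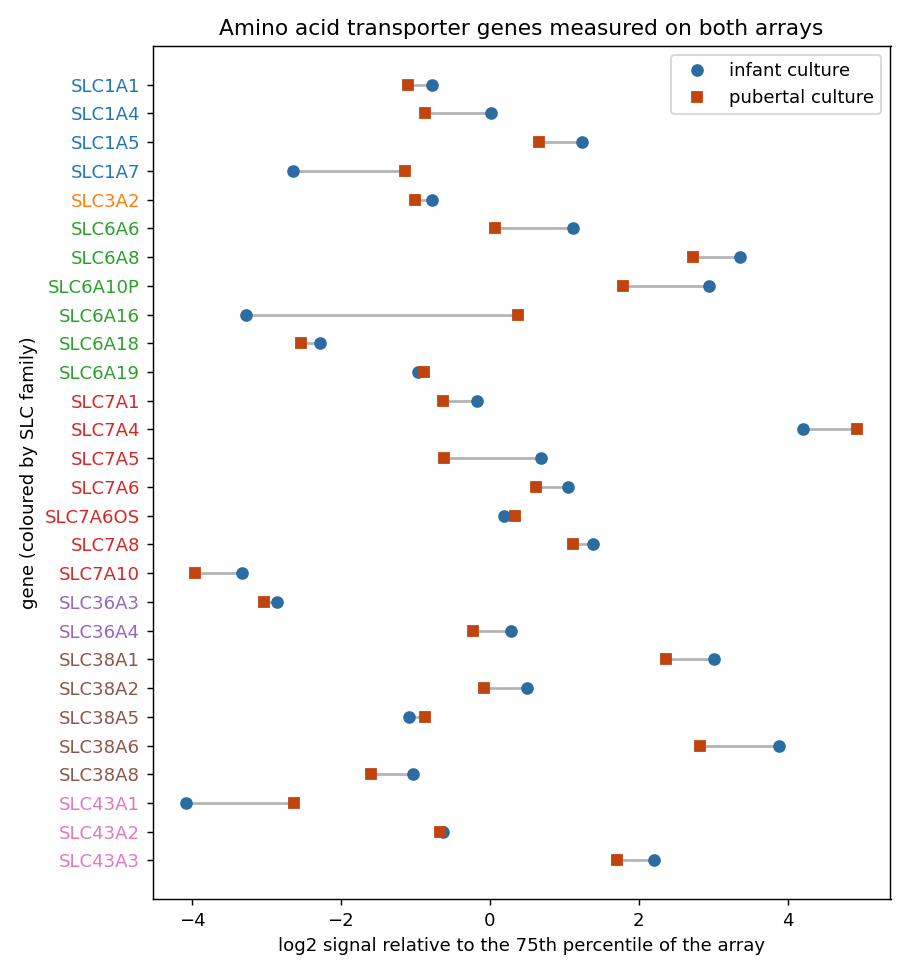
Log2 signal relative to the array's 75th percentile (x axis) of the 28 measured genes (y axis, coloured by family), with the infant culture as circles and the pubertal culture as squares. The pubertal square lies left of the infant circle in 21 genes, and the longest line is that of SLC6A16, from -3.27 to 0.38.

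**Figure D2:**
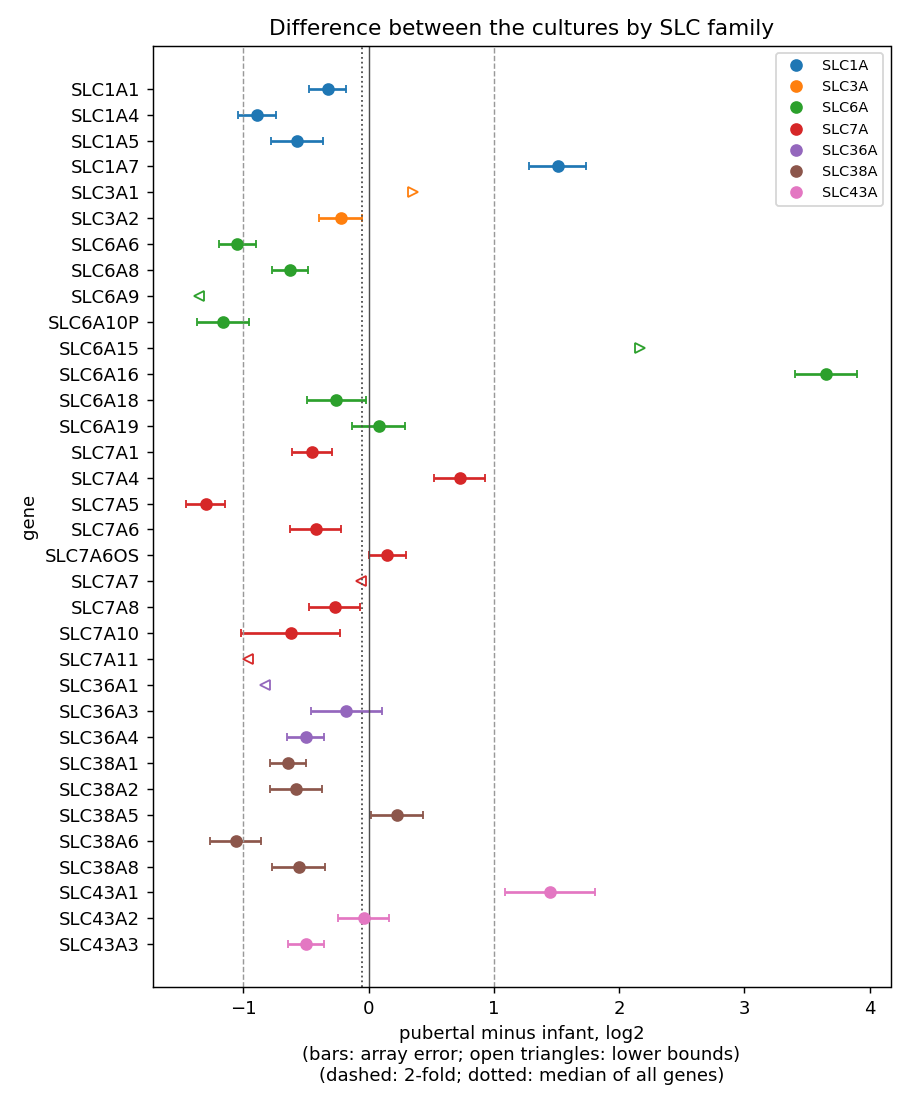
Pubertal minus infant difference on the log2 scale for the 28 measured genes (dots, with bars of 1 array error) and for 6 genes detected on 1 array (open triangles, lower bounds). Dashed lines mark 2-fold and the dotted line the median of all genes, -0.06, and only SLC6A16, SLC1A7, SLC43A1 and the bound of SLC6A15 pass 2-fold to the right.

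Among the light chains of SLC7A, the large neutral amino acid exchanger SLC7A5 had the lowest difference of all measured members. It stood at -0.61 in the pubertal and 0.69 in the infant culture, a difference of -1.30 with an array error of 0.16, or 2.46-fold lower. Both of its probes gave it, at -1.51 and -1.09, and the longest run of bases they share is 5. With normexp background correction the value was -0.98, just short of 2-fold. The heavy chain SLC3A2, which carries SLC7A5 and other light chains to the surface, differed by -0.22, from -0.778 in the infant to -1.001 in the pubertal culture. Its brighter probe, at -0.46, lay in an area of the slide where neighbouring spots also differed between the arrays, and the other probe gave 0.01. The pair thus had differences of unequal size, and the gap between them was not tested.

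The other exchangers of SLC7A that were measured on both arrays differed less. SLC7A8, a second neutral amino acid light chain, stood at 1.12 in the pubertal and 1.39 in the infant culture. SLC7A6, which exchanges cationic for neutral amino acids, stood at 0.62 and 1.04, and its second probe was above background on the infant array alone. SLC7A10, a small neutral amino acid exchanger, stood at -3.95 and -3.33, and its difference of -0.62 had a wide array error of 0.39. A further pair of exchangers was above background on the infant array alone, and their lower bounds do not show a smaller difference than that of SLC7A5. For SLC7A11, the cystine importer that feeds glutathione synthesis, 1 of 3 probes was detected, giving at least 1.95-fold lower in the pubertal culture. SLC7A7, the partner of SLC3A2 in cationic amino acid export, was at least 1.04-fold lower, which is no more than a statement of detection. SLC7A9, the light chain that pairs with SLC3A1 in kidney, and SLC7A13 were above background on neither array. SLC3A1 itself was above background in the pubertal culture only, where it was at least 1.28-fold higher.

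The cationic carriers of SLC7A had opposite signs. SLC7A1, the general arginine and lysine carrier, stood at -0.63 in the pubertal and -0.17 in the infant culture, and both probes were negative, at -0.36 and -0.54. SLC7A4, an orphan relative of this carrier, was among the few members higher in the pubertal culture, at 4.929 against 4.2004, a difference of 0.73 with an array error of 0.20 from 1 probe. SLC7A2, SLC7A3 and SLC7A14 were above background on neither array. SLC7A6OS, which is no transporter, differed by 0.15, with its probes on either side of 0. Over the 7 measured names of SLC7A the median was -0.42.

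In SLC6A the largest difference of all members was that of SLC6A16, an orphan carrier known from testis. Its spot intensity was 531.0 in the pubertal culture against 39.7 in the infant one, which gives 0.38 and -3.27. The difference of 3.65 had an array error of 0.25, or 12.6-fold higher, and lay at the 99.7th percentile of all measured genes. It rests on 1 probe, and normexp background correction gave 2.46. Germ cell markers, named here after their values were seen, were higher in the same culture. DAZL differed by 4.72, STK31 by 4.71, TEX101 by 3.48 and MAEL by 3.37, while DDX4, SYCP3 and MAGEA4 were detected on the pubertal array alone. Detection on the pubertal array alone held for 4.21% of all genes. Of the 8 germ cell markers, 4 of the 5 measured were at least 2-fold higher, where 7.32% of all measured genes were. The summed signal of the 8 was 16.345 in the pubertal and 6.005 in the infant culture in units of the 75th percentile. UTF1 differed by 0.24, and without it the sums were 8.60 and 0.42. In RNA of whole cultures, fewer cells of a type and less RNA per cell cannot be told apart, and the part of germ cells in the SLC6A16 signal was not tested.

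Markers of other cells also differed between the cultures. Summed signals were 143.4 pubertal and 77.1 infant for 6 peritubular myoid markers, and 57.3 and 21.8 without CNN1. For 5 macrophage markers, of which CD68 differed by -0.94, the sums were 4.31 and 0.90, and 1.17 and 0.53 without CD163. For 5 endothelial markers they were 1.02 and 0.43, and 0.56 and 0.19 without VWF. For 7 Leydig cell markers they were 86.3 and 185.0, but without STAR they were 80.96 and 84.6. STAR, CYP17A1 and CYP11A1 were at least 2-fold lower, HSD3B1, HSD3B2 and INSL3 differed by 0.29, 0.25 and 0.42, and LHCGR was above background on neither array. The endothelial CDH5 and KDR were likewise above background on neither. For 14 Sertoli cell markers the sums were 347.6 and 256.6, and 213.3 and 174.9 without CLU. The part of these other cells in the transporter values was not tested.

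The taurine and creatine carriers of SLC6A were lower in the pubertal culture. SLC6A6, which imports taurine, stood at 0.07 in the pubertal and 1.12 in the infant culture, a difference of -1.05 with an array error of 0.15. Its 2 measured probes gave -1.59 and -0.51, and the other 2 were above background on the infant array alone, so all 4 had lower signals in the pubertal culture. The gene was short of 2-fold when taken from its brightest probe (-0.51), with normexp correction (-0.85), with loess (-0.99) and with the percentile over detected probes (-0.98). SLC6A8, which imports creatine, stood at 2.73 and 3.36, with probes at -0.31 and -0.94. The probe of SLC6A10P, its pseudogene copy, gave 1.78 and 2.94, a difference of -1.16 with an array error of 0.20. Which macaque transcript this probe bound was not tested. Its longest run shared with a probe of SLC6A8 is 6 bases, as is that between the 2 SLC6A8 probes. That compares probes only and does not show whether the probe binds SLC6A8 RNA.

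Glycine and neutral amino acid carriers of SLC6A split by detection. SLC6A9, the glycine carrier, was above background on the infant array alone, at -2.93, and at least 2.56-fold lower in the pubertal culture. SLC6A18 differed by -0.26 and SLC6A19, a carrier of neutral amino acids in kidney and gut, by 0.08, which is within its array error of 0.21. SLC6A15, a branched-chain amino acid carrier, was above background in the pubertal culture only, through 1 of 4 probes, and at least 4.48-fold higher there. That spot lay in a disturbed area of the slide, and without such spots SLC6A15 was above background on neither array. SLC6A11, SLC6A12 and SLC6A13, carriers of gamma-aminobutyric acid and betaine, were above background on neither. The same held for the monoamine carriers SLC6A2, SLC6A3 and SLC6A4, for the proline carriers SLC6A7 and SLC6A20, and for SLC6A14 and SLC6A17. SLC6A5, the second glycine carrier, was left out because its infant spot was marked as an outlier. Over the 6 measured names of SLC6A the median was -0.44.

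In SLC1A, the measured neutral amino acid carriers were lower in the pubertal culture, while the measured glutamate carriers differed in direction. SLC1A5, the glutamine carrier, stood at 0.66 in the pubertal and 1.23 in the infant culture, a difference of -0.57 with an array error of 0.20. SLC1A4, which exchanges alanine, serine and cysteine, differed by -0.89, but its probes disagreed. One gave -1.75, from 1.95 in the infant to 0.21 in the pubertal culture, and the other -0.03, and the longest run they share is 5 bases. SLC1A1, a glutamate carrier, stood at -1.10 and -0.77, with probes at -0.42 and -0.23. SLC1A7, a glutamate carrier best known from retina, was higher in the pubertal culture, at -1.13 against -2.64, a difference of 1.51 with an array error of 0.22, or 2.85-fold. Its other probe was above background on the infant array alone, with a difference of -0.37, so the 2 probes disagree in direction. Over both probes the value was 0.57, and with normexp background correction it was 0.90. SLC1A2, SLC1A3 and SLC1A6 were above background on neither array.

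**Figure D3:**
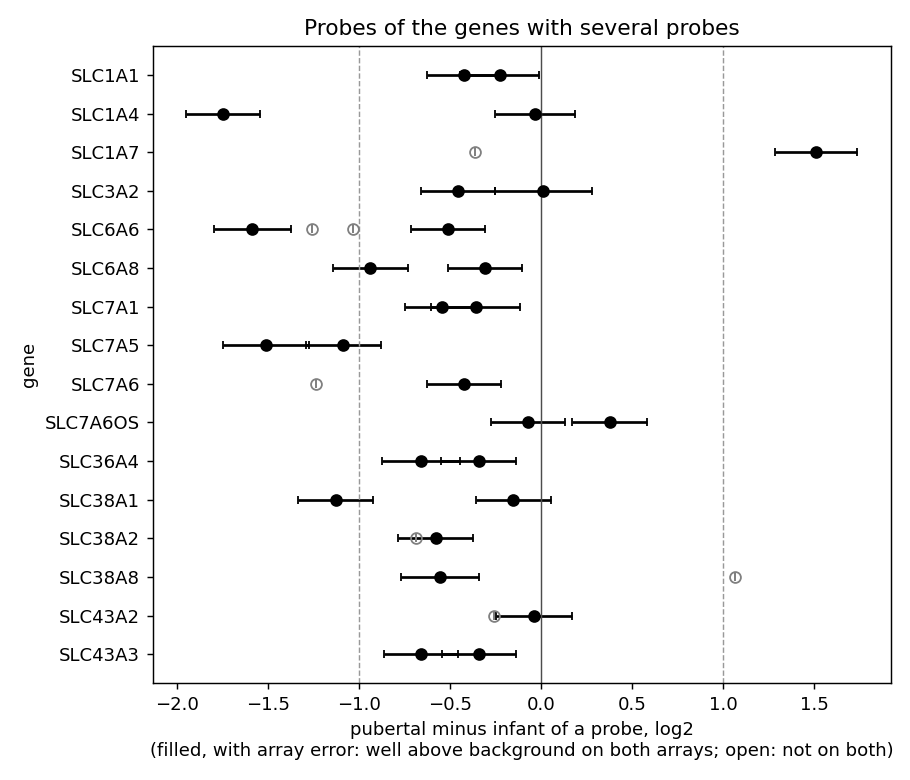
Pubertal minus infant difference on the log2 scale (x axis) of each probe of the 16 measured genes with several probes (y axis). Filled points with bars of 1 array error were well above background on both arrays, and open points were not. The probes of SLC7A5, SLC7A1 and SLC43A3 all lie below 0. Those of SLC1A4 lie at -1.75 and -0.03, and the open point of SLC1A7 lies across 0 from the filled one.

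The probe plot shows that 11 members had several measured probes. In 2 of them, SLC1A4 and SLC6A6, the probes were 1 log2 unit or more apart, and in SLC3A2 and SLC7A6OS they had opposite signs. SLC38A1 came close to this, with probes at -1.13 and -0.15.

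The glutamine carriers of SLC38A were mostly lower in the pubertal culture. SLC38A1 stood at 2.37 in the pubertal and 3.01 in the infant culture, and SLC38A2, the carrier that responds to amino acid supply, at -0.08 and 0.50. SLC38A6, a less studied member, had the largest difference of the family, at 2.83 against 3.89. That is -1.06 with an array error of 0.20, or 2.09-fold lower from 1 probe. It was just short of 2-fold with loess (-0.94), with quantile normalization (-0.98) and with the percentile over detected probes (-0.996). SLC38A8 differed by -0.56, with a second probe above background on neither array, and SLC38A5, which also moves glycine and serine, by 0.22. SLC38A3 and SLC38A4 were above background on neither. The family median was -0.58 over 5 measured names.

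In SLC36A, SLC36A4 stood at -0.22 in the pubertal and 0.28 in the infant culture, with both probes negative, at -0.34 and -0.66. SLC36A3 differed by -0.18, within its array error of 0.28. SLC36A1, the lysosomal and intestinal carrier of small neutral amino acids, was above background on the infant array alone and at least 1.78-fold lower in the pubertal culture. SLC36A2 was above background on neither. In SLC43A, the leucine facilitator SLC43A1 was higher in the pubertal culture, at -2.63 against -4.08. The difference of 1.45 had an array error of 0.36, or 2.73-fold, and rests on an infant signal near the lowest detected one of -4.36. Normexp background correction gave 0.48. SLC43A2 differed by -0.04, and SLC43A3, a carrier of purine bases in spite of its family, stood at 1.71 and 2.21, with both probes negative.

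In all, 22 of the members were above background on neither array, 2 on the pubertal array alone (SLC3A1 and SLC6A15) and 4 on the infant array alone (SLC6A9, SLC7A7, SLC7A11 and SLC36A1). Over all genes these shares were 26.3% for neither, 4.21% for the pubertal and 3.13% for the infant array.

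Members that are neighbours in the macaque gene table shared their state of detection in some cases and not in others. SLC38A1 and SLC38A2 lie next to each other and differed by -0.64 and -0.58, whereas SLC38A4 on the far side of SLC38A2 was above background on neither array. SLC6A18 and SLC6A19 were both measured and within 2-fold. SLC6A12 and SLC6A13 were both above background on neither array. Of SLC36A1, SLC36A2 and SLC36A3, which follow each other, each was in a different state. SLC7A6 and SLC7A6OS differed by -0.42 and 0.15.

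Genes that use or sense amino acids were taken from lists of related genes, which were chosen with earlier results of these data known. Counts in these lists stand beside 54.2% negative, 6.32% at least 2-fold lower and 7.32% at least 2-fold higher over all 14243 measured genes. Aminoacyl-tRNA synthetases, which load amino acids for translation, were the most uniform, with 18 of 20 negative and a median of -0.41. Of these, 1 was at least 2-fold lower and 0 higher. That 1 is the methionine enzyme MARS, whose -1.69 averages probes at -3.29 and -0.10, so it rests on 1 of 2 probes. The glycine enzyme GARS differed by -0.997 and the tryptophan enzyme WARS by -0.90. In the amino acid response, the programme run by ATF4 when amino acids are short, 21 of 29 were negative with a median of -0.29, with 5 at least 2-fold lower and 1 higher. TRIB3 differed by -1.82, DDIT4 by -1.48 and CEBPB by -1.28. ATF4 itself differed by -0.24, and asparagine synthetase ASNS by -0.92.

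**Figure D4:**
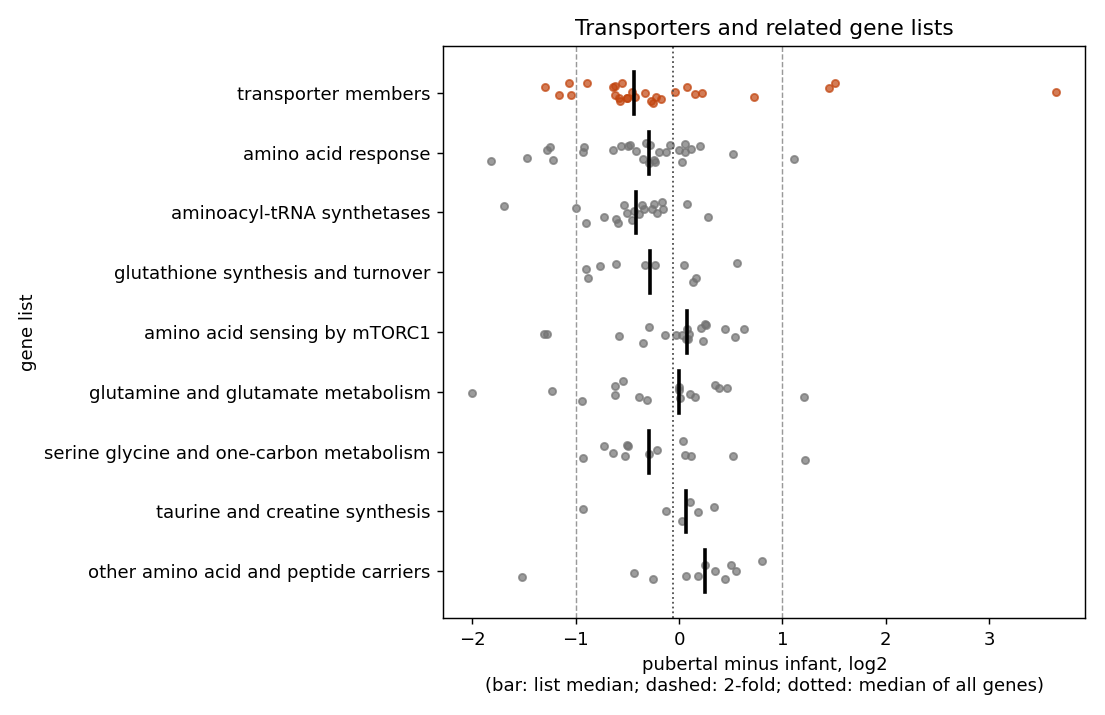
Pubertal minus infant difference on the log2 scale (x axis) of each measured gene (points) of the transporters and of 8 related lists (y axis), with list medians as bars. Dashed lines mark 2-fold and the dotted line the median of all genes, -0.06. The transporters (-0.44) and the synthetases (-0.41) have the lowest medians, and the other carriers (0.25) the highest.

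Glutathione genes had a median of -0.28 over 10 measured names, none past 2-fold. GSR differed by -0.90, GGTL3 by -0.88 and GGTLA1 by -0.77. Serine, glycine and one-carbon genes had a median of -0.29 over 13, with SHMT1 higher by 1.22, SHMT2 at -0.93 and GCSH at -0.73. Glutamine and glutamate enzymes had a median of 0.00 over 17, with 2 at least 2-fold lower and 1 higher. GFPT2, which uses glutamine to make amino sugars, differed by -2.001 over 3 probes, and alanine transaminase GPT by 1.21. GLUL, the enzyme that makes glutamine, was above background on neither array.

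The mTORC1 amino acid sensing genes had a median of 0.08 over 19, with SESN3 at -1.31 and RRAGD at -1.28 the only members past 2-fold, followed by TSC2 at 0.63. Taurine and creatine synthesis genes had a median of 0.07 over 6, none past 2-fold, with CDO1 at -0.93, BAAT at 0.34 and CKB at 0.18, the last from probes of opposite sign at -0.67 and 1.03. Other amino acid and peptide carriers had a median of 0.25 over 11, with 8 positive. SLC16A10, a plasma membrane carrier of aromatic amino acids, was the exception past 2-fold at -1.52, followed by SLC25A29 at 0.80 and SLC15A4 at 0.55.

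**Figure D5:**
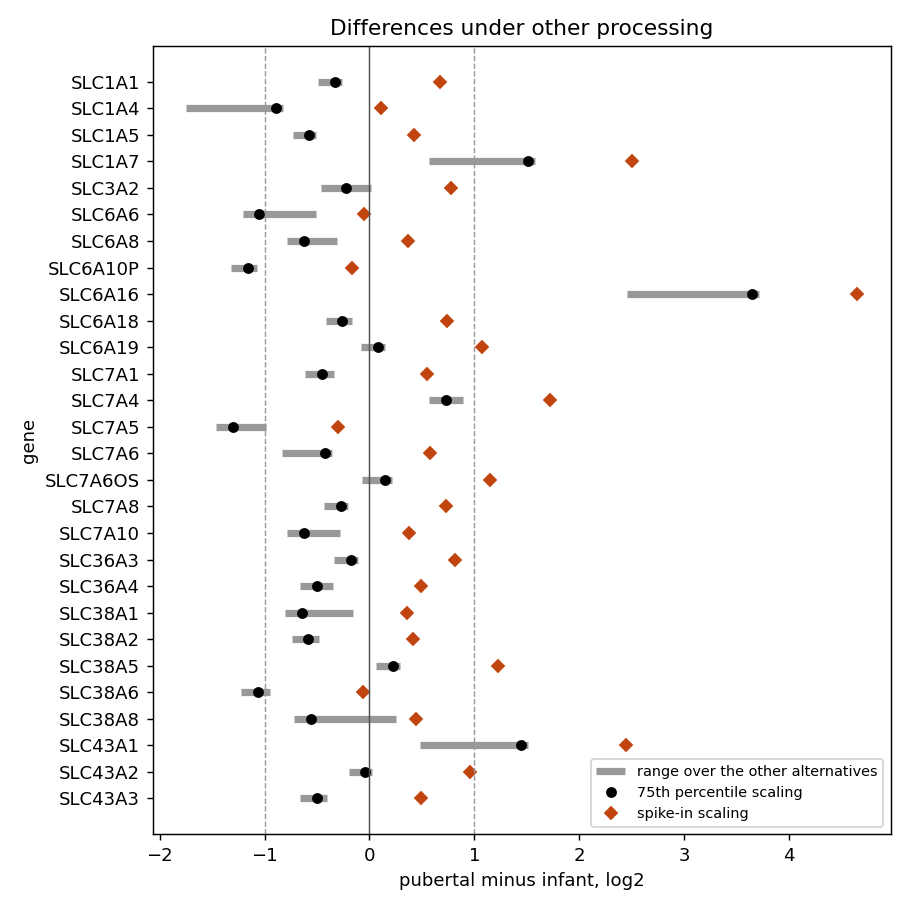
Pubertal minus infant difference on the log2 scale (x axis) of each measured member (y axis) with the 75th percentile scaling (circles), with spike-in scaling (diamonds) and as a range over the other alternatives (bars). The circle of SLC7A5 lies at -1.30 and its diamond at -0.30, and SLC6A16 stays above 2-fold throughout, from 2.46 to 4.65.

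The plot of processing choices shows how each member depended on them. SLC6A16 was past 2-fold in each alternative that gave it a value. SLC7A5, SLC6A10P, SLC38A6 and SLC6A6 kept a negative sign in each, and with spike-in scaling they stood at -0.30, -0.16, -0.06 and -0.05. Of the 21 members with a negative difference, 17 turned positive on that scale.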

How the data were processed

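The authors extracted spot values with Agilent Feature Extraction 10.5.1.1, as the submitters' processing notes name it. Its processed intensity, as deposited, had spatial and multiplicative detrending switched on, per the file headers. The array design is a human one. Spots marked as outliers were left out, log2 was taken and each array's 75th percentile (406.7 pubertal, 382.4 infant) was subtracted. A gene is the mean of its probes well above background on both arrays. Genes with 1 detecting array have lower bounds, set from that array's signal and, on the dim one, its lowest detected signal (-4.29 pubertal, -4.36 infant) or the probe's own if higher. Spots well above background made up 54.9% (pubertal) and 54.8% (infant) of those for genes, with 0 saturated. Replicate spots of 78 probes had a median SD of 0.09 and 0.08. Precision is limited by having 2 arrays.

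Members are named, with values for all measured ones, and related lists are named by up to 3 members with the largest difference. Some items that fall under these rules are not reported here, and other genes were chosen after their values were seen. Members and lists were chosen with earlier results of these data known. Gene order was read from the macaque RefSeq table and no coordinates were used. Functions were tested on simulated data. Python 3.11.15, pandas 2.3.3, R 4.3.3 and limma 3.58.1 were used. Alternatives were normexp correction (offset 50), median, detected-probe, quantile, loess (span 0.3) and spike-in scaling, other probe rules, filters and flags, thresholds of 1.5- and 4-fold, and leaving out 773 spots in disturbed areas. Such a spot had at least 2 neighbours within 2.3 grid units over 4 log2 apart in the same direction, or at least 6 dim neighbours within 4.2 units with a median difference over 1.5.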

Additional observations from a re-analysis of the deposited data

How the results depend on the processing

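No paired analysis was possible because each group has 1 array. A median counted as moved when it shifted by more than the members' median array error of 0.20. Spike-in scaling raised all medians: members 0.56, SLC1A 0.55, SLC3A 0.77, SLC6A 0.56, SLC7A 0.57, SLC36A 0.66, SLC38A 0.42, SLC43A 0.96, amino acid response 0.70, synthetases 0.58, glutathione 0.72, mTORC1 sensing 1.08, glutamine and glutamate 1.00, serine and one-carbon 0.70, taurine and creatine 1.06, and other carriers 1.25. It gave 7 members at least 2-fold higher and 0 lower, where 45.6% and 0.864% of all genes were. With no filter on dim probes the medians were -0.14 (members), -0.27 (SLC38A), 0.084 (SLC3A), 0.073 (SLC6A) and -0.068 (SLC7A). In that setting 7 of 56 members were lower, beside 1485 of 21495 genes. Among brighter genes only, 0 of 12 members were higher, beside 309 of 7121 genes. In that setting the SLC43A value was -0.50, from SLC43A3 alone, and the SLC6A median was -1.05, from SLC6A6, SLC6A8 and SLC6A10P. Other medians were -0.06 (SLC7A), -0.31 (glutamine and glutamate) and 0.045 (glutathione). The brightest probe gave -0.46 for SLC3A and -0.25 for glutamine and glutamate. The weaker detection flag gave 0.084 for SLC3A and -0.35 for glutamine and glutamate. With it 8 of 42 members were lower, beside 1363 of 17022 genes. Without disturbed areas SLC3A was at 0.012. Normexp correction gave 1 member higher and 2 lower, beside 553 and 568 of 14243 genes. Loess normalization gave 2 lower, beside 766 genes, as did the percentile over detected probes, beside 773. At 1.5-fold 8 members were lower, and at 4-fold 1 was higher and 0 lower. The shares of all genes at these thresholds are not given here. Fewer genes enter with the brighter filter, and more enter without a filter or with the weaker flag. For the other changes the cause was not tested. Directions of no called member reversed. Depth here is signal over background: dim spots carry larger array errors, such as 2.05 for a probe of SLC7A11, and bounds replace folds there.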
